A study of Mus musculus with 8 samples.

Results

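The genes described here copy DNA or supply its building blocks: 52 genes of origin recognition, helicase loading and activation, the replicative polymerases, the sliding clamp and its loader, single-strand binding, ligation, deoxynucleotide supply and chromatin assembly, together with the transcription factor E2f1. They were chosen by the gene symbol of the platform annotation, and a gene was kept when a probe for it stood above background on at least 2 of 8 arrays, whatever the group. That left 43 of the 52 genes, among 9340 genes tested in all. No probe carried the symbols Gins1, Gins2 or Rfc3, and the probes for Orc1, Orc2, Mcm8, Pola1, Prim1 and Pole2 did not stand above background on enough arrays.

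The RNA came from embryonic fibroblasts of the C57BL/6J background and was measured on one-colour Illumina bead arrays. Each of the 4 groups had 2 arrays: untreated wild type, wild type after 12 h of doxorubicin, untreated staggerer and staggerer after 12 h of doxorubicin. Staggerer is a deletion within Rora, which encodes the nuclear receptor RORα, and every cell of a staggerer animal carries it. Doxorubicin traps topoisomerase II on DNA and causes double-strand breaks, and the series asks how RORα changes expression with and without that damage. No source used here states the dose. Whether both arrays of a group stand for separate cultures or embryos is also unstated. The p-values therefore measure only array-to-array spread, possibly technical, and a difference by genotype cannot be told apart from a difference between cell isolates.

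Replication origins are licensed in G1 phase, when the origin recognition complex, Cdc6 and Cdt1 load the MCM2-7 helicase onto DNA. In S phase the Cdc7 kinase, Cdc45 and the GINS complex turn that helicase on, polymerase alpha with primase starts each strand, and polymerases delta and epsilon extend it on the PCNA clamp while ribonucleotide reductase, thymidylate synthase and thymidine kinase provide deoxynucleotides. Many of these genes are transcribed in late G1 and S phase under E2F transcription factors, and DNA damage checkpoints that act through p53, p21 and the retinoblastoma family can repress them.

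Signals are given as log2 of background-corrected, quantile-normalized intensity, and they compare arrays for 1 gene, not genes with each other. The treated staggerer arrays stood apart. They had 9246 and 9576 probes above background, against 10942 to 11572 on the other arrays, and before scaling between arrays their median signal over the tested probes was 7.55 and 7.64, against 8.61 to 9.11 elsewhere. Of 12 fibroblast markers, 10 or 11 were above background on every array, and Fn1 had no probe. Mesothelial markers differed by genotype: 3 of 3 were above background on every wild type array, 0 of 3 on the untreated staggerer arrays and 1 or 2 on the treated ones. Macrophage markers were above background for 5 of 8 genes on the wild type arrays and for 3 or 4 of 8 on the staggerer arrays. The part of other cell types or of the weaker arrays in the results was not tested.

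Promoter sequence is shown for the 3 genes with the largest falls in wild type cells whose promoter held an E2F core, since E2F sites are the sequence feature these genes are known for. The windows run from 250 bases before to 50 bases after the annotated start and are from RefSeq (GRCm38.p6). The capitals mark the core TTCCCGC, written as GCGGGAA where it lies on the other strand. The window of Pold1, the catalytic subunit of polymerase delta, is chr7:44548766-44549065 on the minus strand, with the core 39 bases after the start. That of Cdc7, the kinase that activates the helicase, is chr5:106964072-106964371 on the plus strand, with the core 13 bases after the start. That of Rrm1, the large subunit of ribonucleotide reductase, is chr7:102441445-102441744 on the plus strand, with the core at position -67. A further window of Cdc7, chr5:106964311-106964610, is not printed. It holds 2 TTCCCGC cores, and the first, at position -226 there, is the core marked here.
Pold1: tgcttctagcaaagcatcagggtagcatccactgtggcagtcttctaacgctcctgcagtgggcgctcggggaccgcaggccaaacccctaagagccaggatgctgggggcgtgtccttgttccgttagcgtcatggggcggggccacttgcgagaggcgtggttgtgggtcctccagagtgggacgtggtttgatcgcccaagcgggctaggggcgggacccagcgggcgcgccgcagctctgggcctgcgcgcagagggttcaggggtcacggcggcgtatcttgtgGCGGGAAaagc
Cdc7: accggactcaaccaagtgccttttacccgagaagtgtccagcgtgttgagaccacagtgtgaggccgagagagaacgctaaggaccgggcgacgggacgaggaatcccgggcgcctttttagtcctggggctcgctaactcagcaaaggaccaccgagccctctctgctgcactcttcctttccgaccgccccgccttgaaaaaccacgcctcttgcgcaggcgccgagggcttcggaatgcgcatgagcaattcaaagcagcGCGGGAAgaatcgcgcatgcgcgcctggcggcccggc
Rrm1: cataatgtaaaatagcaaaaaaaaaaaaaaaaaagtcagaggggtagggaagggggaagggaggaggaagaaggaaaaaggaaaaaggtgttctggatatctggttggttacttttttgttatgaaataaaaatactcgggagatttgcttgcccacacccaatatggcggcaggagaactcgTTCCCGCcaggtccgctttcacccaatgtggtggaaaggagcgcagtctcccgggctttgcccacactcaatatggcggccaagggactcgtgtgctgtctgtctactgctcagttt

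RefSeq promoters were found for 38 of the 43 genes, and 22 of them (57.9%) held TTCCCGC or TTGGCGC on either strand. The share was 13.9% of all tested genes with a promoter and 7.79% of all genes in the promoter table. TTCCCGC alone was in the promoters of 17 genes and TTGGCGC in those of 8. Matches on either strand were counted and may overlap. A core was present in 15 of 24 genes that fell after doxorubicin in wild type cells, in 5 of 9 that did not pass the test and in 2 of 5 that rose. Pold2, Tk1 and Mcm2, which fell about as far as the genes printed above, had no core in these windows. A match is a description of the letters, not evidence of binding. Short stretches from genes that behaved differently, chosen after their values were seen, show TTCCCGC in Cdc6, Pold3, Pole3 and Chaf1b and TTGGCGC in Mcm6: Cdc6 and Pold3 fell in both genotypes, Mcm6 fell in wild type cells and rose in staggerer cells, and Pole3 and Chaf1b rose in both.
Cdc6, chr11:98907901-98908200, plus strand: ccggtggagaGCGGGAAatcgcctggg
Pold3, chr7:100121453-100121752, minus strand: gcgaagctgtTTCCCGCcggcgggagc
Mcm6, chr1:128359656-128359955, minus strand: gcgtatgcttTTGGCGCgaaaagtgcg
Pole3, chr4:62524965-62525264, minus strand: ttttagcgacGCGGGAAgtccagacac
Chaf1b, chr16:93883651-93883950, plus strand: cctccgaggcGCGGGAAtgggattccc

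In wild type cells most of the replication genes fell after 12 h of doxorubicin. Of the 43, 27 fell, where 30.3% of all tested genes fell, and 5 rose, where 26.3% of all tested genes rose. The remaining 11 did not pass an adjusted p of 0.05. Their median change was -0.70 on the log2 scale, against -0.09 over all genes. At least 1 gene fell at every stage from origin recognition to chromatin assembly except flap removal and ligation. Helicase activation (4 genes), polymerase epsilon (3 genes) and chromatin assembly (2 genes) each had only 1 fall, and 1 rise. The falls were deepest for the polymerase delta subunits Pold2 and Pold1, thymidine kinase Tk1, the kinase Cdc7 and the reductase subunit Rrm1. The 5 that rose were Rrm2, E2f1, Chaf1b, Pole3 and Cdc45. Fibroblast markers were lower on the same arrays: 8 of the 11 tested fell and 0 rose, with a median of -0.55. Their summed log2 signal was 16.50 untreated and 16.19 to 16.24 treated. Of other markers, 1 of 3 mesothelial fell, and 1 of 5 macrophage and the 1 blood marker tested rose. Epithelial markers rose for 1 of 3 and fell for 1, and neural markers rose for 1 of 2 and fell for 1. Their part in the result was not tested. In bulk RNA, fewer cells in S phase and less RNA per cell cannot be told apart. Without the first untreated wild type array, 9 of these calls were lost (Cdc45, Cdc6, Dut, Orc3, Pole3, Prim2, Rfc4, Rpa2 and Rpa3, adjusted p from 0.061 to 0.211), and without background correction the median was -0.43.

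**Figure D1:**
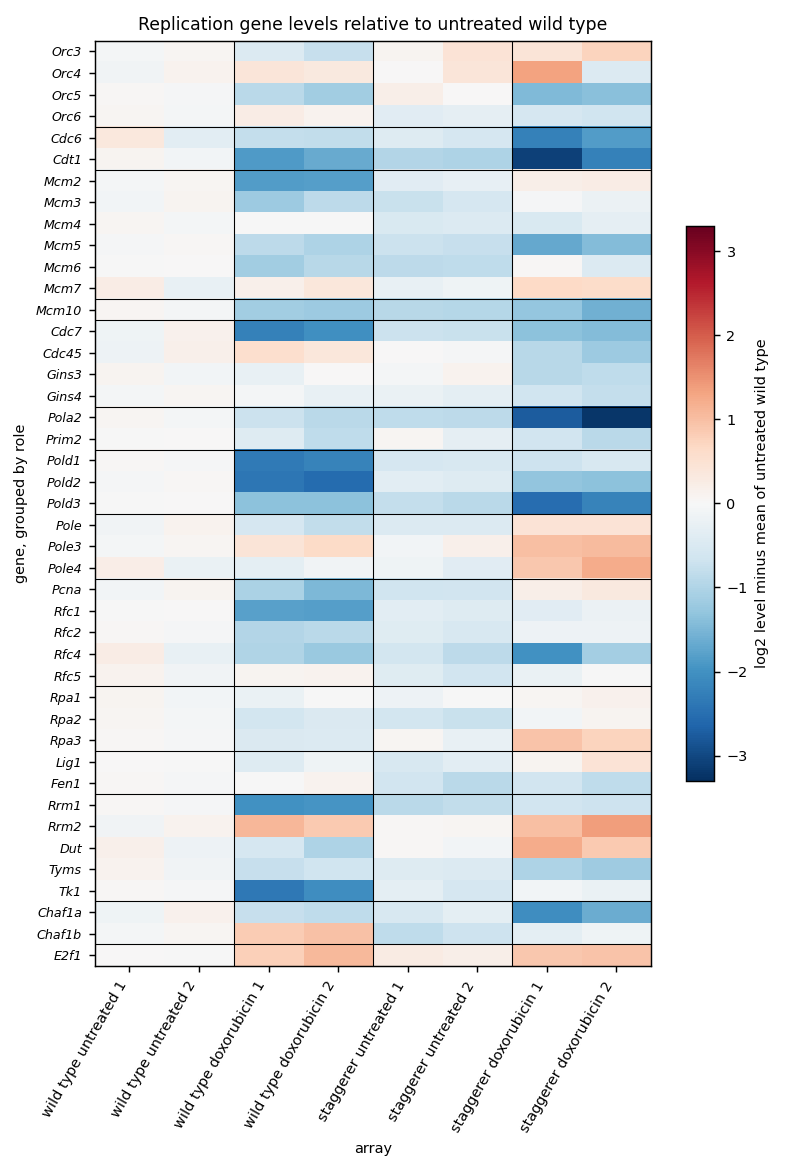
Normalized log2 signal of the 43 genes on each of the 8 arrays, shown as the difference from the gene's mean on the 2 untreated wild type arrays (blue lower, red higher), with genes in rows ordered by role. The treated wild type columns are blue for most genes, while the treated staggerer columns hold both colours.

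In staggerer cells the same treatment moved the genes in both directions, at shares near those of all tested genes. Of the 43, 17 (39.5%) rose and 16 (37.2%) fell, where 31.6% of all tested genes rose and 33.1% fell, and 10 did not pass. The median change was 0.20, against 0.03 over all genes. Those that fell were Cdc6, Cdt1, Orc5, Cdc7, Cdc45, Gins3, Gins4, Mcm5, Mcm10 and both measured subunits of polymerase alpha-primase, together with Pold2, Pold3, Rfc4, Tyms and Chaf1a. Those that rose include Mcm2, Mcm3, Mcm6 and Mcm7, the 3 measured polymerase epsilon subunits, Pcna, Rpa2 and Rpa3, Lig1, Dut and Rrm2. These counts depended on how the arrays were scaled to each other. With median centring 22 rose and 13 fell, where 4657 and 2329 of the 9340 tested genes did. With no scaling between arrays 1 rose and 26 fell, where 966 and 4817 of all genes did. The median of the 43 moved to 0.42 and to -0.61 and that of all genes to 0.46 and to -0.56. Relative to the median of all genes, the median of the replication genes was 0.17 as reported and -0.04 under either of those scalings. Across the 4 scalings tried, 13 genes fell in every case, and only Rpa3 rose in every case. Mesothelial markers rose with this treatment for 3 of 3 genes and macrophage markers for 4 of 5. Epithelial markers rose for 2 of 3, neural markers for 2 of 2 and the 1 muscle marker tested rose, while the 1 blood marker did not pass. Of 11 fibroblast markers 4 rose and 3 fell. The part of these markers was not tested. Without the first untreated staggerer array, Chaf1b, Gins4, Mcm3, Mcm6, Mcm10, Prim2, Rfc2 and Rfc4 lost their calls (adjusted p from 0.0586 to 0.172), and Rfc5 lost its call without the second (adjusted p = 0.21).

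The responses of the genotypes differed for 23 of the 43 genes when the difference itself was tested as an interaction. For 19 the response in staggerer cells lay above that in wild type cells, where this held for 26.5% of all tested genes, and for 4 it lay below, where this held for 32.5%. The median difference was 0.32, against -0.11 over all genes. It was 0.66 against 0.29 with median centring and -0.057 against -0.43 with no scaling between arrays. Of the 19, 9 fell in wild type cells and rose in staggerer cells: Mcm2, Mcm3, Mcm6, Pole, Pcna, Rfc2, Rpa2, Rpa3 and Dut. That combination was found in 20.9% of the replication genes and in 7.03% of all tested genes. Of the 9, only Rpa3 rose in staggerer cells under all 4 scalings. With no scaling between arrays the staggerer change was negative for Mcm2, Mcm3, Mcm6, Pole, Pcna, Rfc2 and Rpa2. Another 5 fell in wild type cells and did not pass in staggerer cells (Orc3, Pold1, Rfc1, Rrm1 and Tk1). A further 3 fell in both but further in wild type cells (Mcm10, Cdc7 and Pold2), though a dimmer Mcm10 probe gave a difference of -0.10. Pole4 and Lig1 rose in staggerer cells and did not pass in wild type cells. The 4 below were Cdc45, Pola2, Gins3 and Orc5. Under median centring 22 genes lay above and 3 below, where 3686 and 2393 of the 9340 tested genes did. With no scaling between arrays 16 lay above and 8 below, where 1565 and 3914 of all genes did. Under all 4 scalings 15 lay above and 2 below. Without the first untreated staggerer array, Mcm10, Orc3 and Orc5 lost their calls (adjusted p from 0.0518 to 0.15). Cell type markers also differed in response. The staggerer response was the higher for 7 of 11 fibroblast markers (median 0.97), 3 of 3 mesothelial markers (median 2.04) and 3 of 5 macrophage markers (median 0.86). It was lower for 0 of each. Of 3 epithelial markers it was higher for 1 and lower for 1. It was higher for 1 of 2 neural markers and for the 1 muscle marker tested, and lower for the 1 blood marker tested (-2.50). Their part in the result was not tested.

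**Figure D2:**
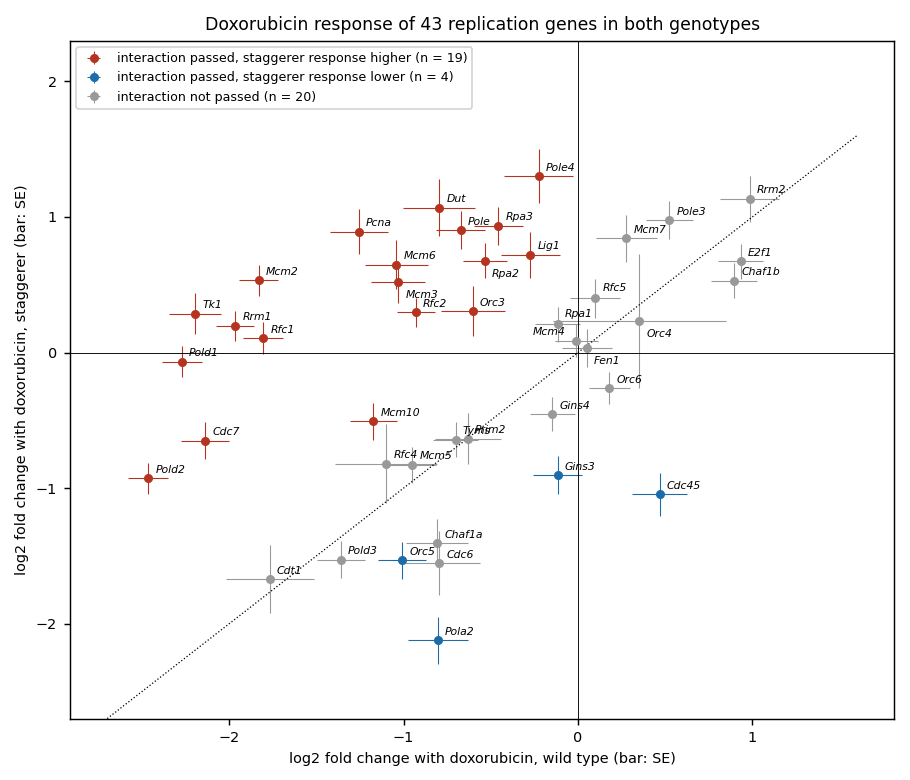
Fitted log2 change after 12 h of doxorubicin in wild type cells (horizontal axis) and in staggerer cells (vertical axis) for each of the 43 genes, coloured by the test of the difference between the responses, with bars for the standard error and a dotted line where the responses are equal. Genes below background in a group are at their fitted values. The 19 genes with a higher staggerer response lie above the diagonal and the 4 with a lower one below it, and the other 20 did not pass.

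**Figure D3:**
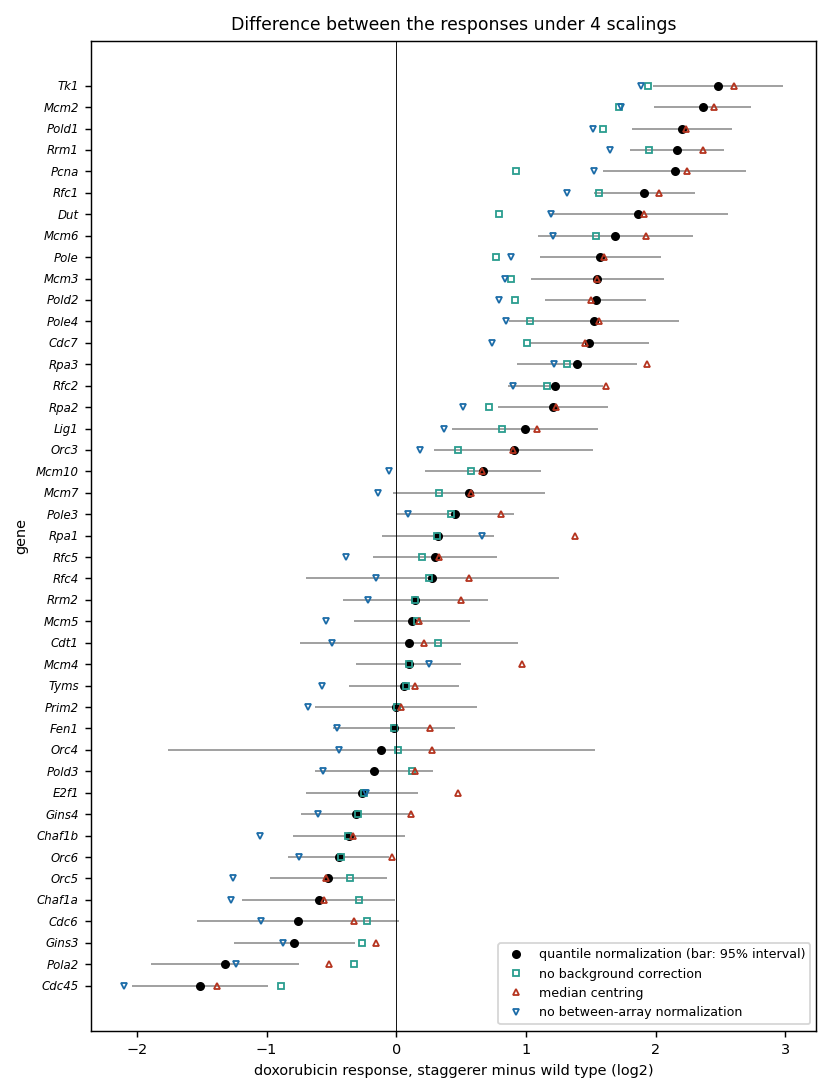
Difference between the doxorubicin responses, staggerer minus wild type, in log2 units for each gene, with its 95% interval and with the value under each of the 4 scalings. Tk1, Mcm2, Pold1 and Rrm1 stay far above 0 under every scaling, and Mcm10 changes sign with no scaling between arrays.

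Among the licensing genes, Cdt1, which brings the MCM2-7 helicase to origins, was lower after doxorubicin in both genotypes. Its signal was 9.94 and 9.75 on the untreated wild type arrays, 7.98 and 8.18 after doxorubicin, 8.88 and 8.84 on the untreated staggerer arrays, and 6.77 and 7.61 after doxorubicin. Treated arrays were below untreated arrays within each genotype, with no overlap. Cdt1 fell by 1.77 ± 0.25 in wild type cells (log2, standard error, n = 2 arrays a group, adjusted p = 0.000857) and by 1.67 ± 0.25 in staggerer cells (adjusted p = 0.000925). The interval of the difference between these responses ran from -0.74 to 0.94. Cdc6, the loading ATPase, read 8.73 and 8.03, then 7.60 and 7.58 in wild type cells, and 7.97 and 7.83, then 6.16 and 6.53 in staggerer cells. It was not above background on either treated staggerer array. There it was at least 2.10-fold lower (adjusted p = 0.000917), a bound that sets the untreated mean against the higher, on each treated array, of the gene's own signal and the lowest signal above background. In wild type cells it fell by 0.79 ± 0.23 (adjusted p = 0.0228).

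Of the origin recognition subunits, Orc5 fell by 1.01 ± 0.14 in wild type cells (adjusted p = 0.000656) and by 1.53 ± 0.14 in staggerer cells (adjusted p = 8.69e-05), and the difference was -0.52 ± 0.19 (adjusted p = 0.0494). Its 4 treated signals, from 7.98 to 8.56, lay below its 4 untreated ones, from 9.41 to 9.65. Orc3 fell by 0.60 ± 0.18 in wild type cells (adjusted p = 0.0263) and changed by 0.30 ± 0.18 in staggerer cells, which did not pass (adjusted p = 0.185). The difference for Orc3 was 0.91 ± 0.26 (adjusted p = 0.0202). Orc6 did not pass in either genotype. Orc4 was above background on neither untreated wild type array, and its treated staggerer signals of 7.25 and 5.47 spread so widely that leaving out either array reversed the sign of its change or of the difference.

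Of the 6 subunits of the MCM2-7 helicase, which unwinds DNA, 4 fell in wild type cells, while 4 rose and 1 fell in staggerer cells. Mcm2 read 9.49 and 9.61 on the untreated wild type arrays, 7.71 and 7.72 after doxorubicin, 9.17 and 9.28 on the untreated staggerer arrays, and 9.73 and 9.78 after doxorubicin. The treated wild type arrays were the low ones, and the treated staggerer arrays were the highest of all. Mcm2 fell by 1.83 ± 0.11 in wild type cells (adjusted p = 2.25e-05) and rose by 0.53 ± 0.11 in staggerer cells (adjusted p = 0.00454), a difference of 2.36 ± 0.16 (adjusted p = 0.000197). With no scaling between arrays its staggerer change was -0.39 and no longer passed. Mcm3 and Mcm6 followed the same course. Mcm3 fell by 1.03 ± 0.15 (adjusted p = 0.00107) and rose by 0.52 ± 0.15 (adjusted p = 0.02), with a difference of 1.55 ± 0.22 (adjusted p = 0.000967), and Mcm6 fell by 1.04 ± 0.18 (adjusted p = 0.00213) and rose by 0.65 ± 0.18 (adjusted p = 0.0155), with a difference of 1.69 ± 0.26 (adjusted p = 0.0013). Their staggerer rises also turned to -0.50 and -0.07 with no scaling between arrays. Mcm5 fell in both genotypes, by 0.95 ± 0.13 (adjusted p = 0.000817) and 0.83 ± 0.13 (adjusted p = 0.00131). Mcm4 stayed between 12.75 and 12.86 on the wild type arrays and between 12.29 and 12.52 on the staggerer arrays. Its wild type change was -0.01, with an interval from -0.30 to 0.28. Mcm7 rose by 0.84 ± 0.18 in staggerer cells (adjusted p = 0.00432), which turned to -0.16 with no scaling between arrays. Mcm10, which links the helicase to polymerase alpha, fell by 1.18 ± 0.14 in wild type cells (adjusted p = 0.000311) and by 0.51 ± 0.14 in staggerer cells (adjusted p = 0.0127). Its difference of 0.67 ± 0.19 (adjusted p = 0.0196) turned to -0.06 with no scaling between arrays. A dimmer Mcm10 probe, above background on 5 arrays but on neither treated staggerer array, gave -0.88 in wild type cells and -0.98 in staggerer cells. Its difference was -0.10.

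**Figure D4:**
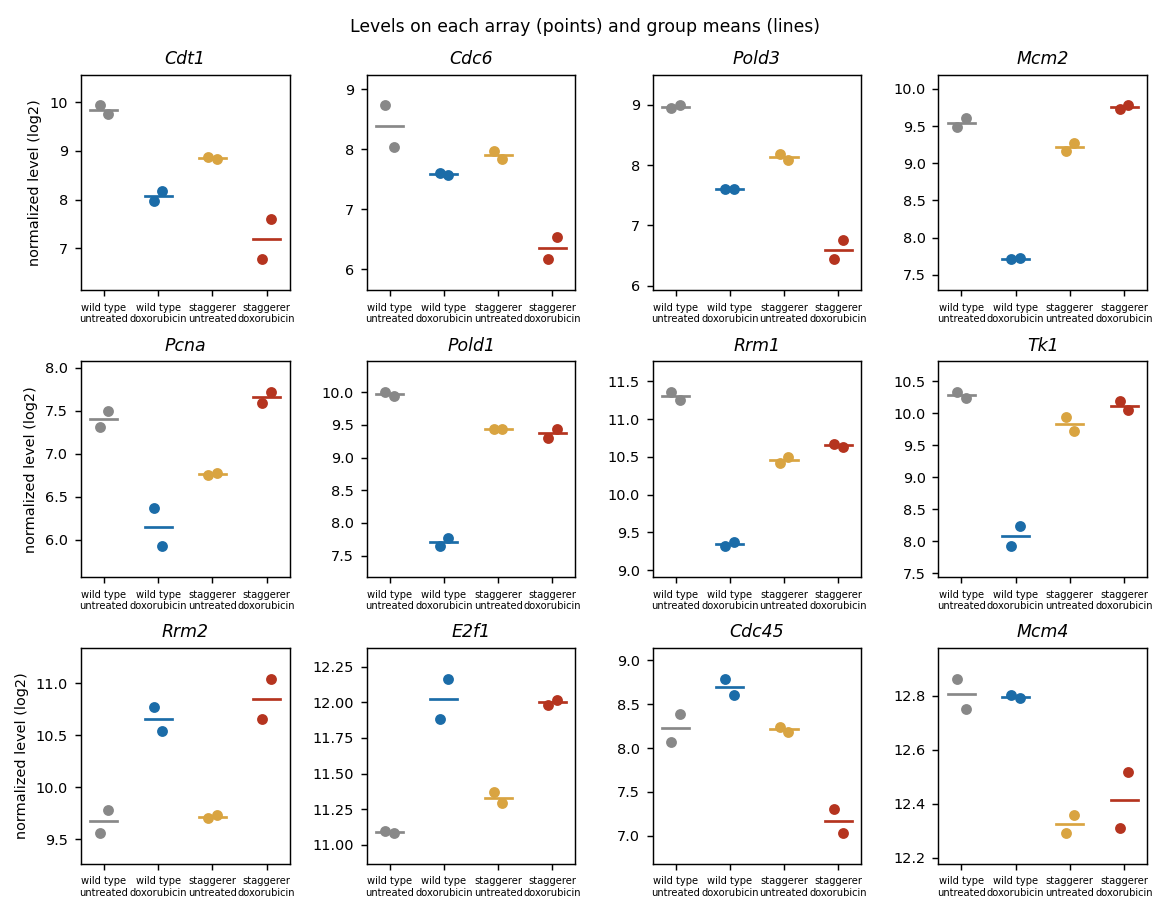
Normalized log2 signal on each of the 8 arrays for Cdt1, Cdc6, Pold3, Mcm2, Pcna, Pold1, Rrm1, Tk1, Rrm2, E2f1, Cdc45 and Mcm4, with 1 point an array and a bar at the mean of each group. Mcm2, Pcna, Pold1, Rrm1 and Tk1 are low on the treated wild type arrays alone, Cdt1, Cdc6 and Pold3 are lowest on the treated staggerer arrays, and Rrm2 and E2f1 are high on treated arrays of both genotypes.

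Among the genes that activate the helicase, Cdc45, the factor that joins MCM2-7 and GINS into the moving helicase, went in opposite directions. Its signals were 8.07 and 8.39 on the untreated wild type arrays, 8.79 and 8.61 after doxorubicin, 8.24 and 8.18 on the untreated staggerer arrays, and 7.30 and 7.03 after doxorubicin. The treated staggerer arrays were below all 6 others. Cdc45 rose by 0.47 ± 0.16 in wild type cells (adjusted p = 0.0377), a call lost without any of 5 single arrays, and fell by 1.05 ± 0.16 in staggerer cells (adjusted p = 0.000925). The difference was -1.52 ± 0.22 (adjusted p = 0.00118). Cdc7 read 9.47 and 9.73, then 7.36 and 7.57 in wild type cells, and 8.88 and 8.85, then 8.25 and 8.17 in staggerer cells. It fell in both genotypes, by 2.14 ± 0.14 (adjusted p = 2.79e-05) and by 0.65 ± 0.14 (adjusted p = 0.00466), and the difference was 1.49 ± 0.20 (adjusted p = 0.000748). Both measured GINS subunits fell in staggerer cells, Gins4 by 0.45 ± 0.13 (adjusted p = 0.0161) and Gins3 to below background on both treated arrays (adjusted p = 0.00107), where no fold is given. Neither passed in wild type cells. The fitted difference for Gins3 was -0.79 ± 0.20 (adjusted p = 0.0119). The fall of Gins4 ended under median centring, where its change was 0.0035.

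The polymerase subunits differed both between and within complexes. Of polymerase alpha-primase, which lays down the primers, Pola2 read 8.56 and 8.42, then 7.77 and 7.60 in wild type cells, and 7.65 and 7.63, then 5.75 and 5.28 in staggerer cells. The untreated staggerer arrays already lay near the treated wild type arrays, and the treated staggerer arrays were below background. Pola2 fell by 0.81 ± 0.17 in wild type cells (adjusted p = 0.00576) and was at least 1.76-fold lower after treatment in staggerer cells (adjusted p = 6.11e-05), with a fitted difference of -1.32 ± 0.24 (adjusted p = 0.00307). The primase subunit Prim2 fell by 0.63 ± 0.19 in each genotype (adjusted p = 0.0236 and 0.0199).

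All 3 polymerase delta subunits fell in wild type cells. Pold1 read 10.00 and 9.95, then 7.64 and 7.77 in wild type cells, and 9.43 and 9.44, then 9.30 and 9.45 in staggerer cells. The treated wild type arrays were the only low ones. Pold1 fell by 2.27 ± 0.12 (adjusted p = 1.14e-05) and changed by -0.07 in staggerer cells, with an interval from -0.34 to 0.21 (adjusted p = 0.628), and the difference was 2.20 ± 0.16 (adjusted p = 0.000197). Pold2 read 9.40 and 9.48, then 7.06 and 6.89 in wild type cells, and 9.08 and 9.0, then 8.15 and 8.08 in staggerer cells. In wild type cells it fell by 2.47 ± 0.12 (adjusted p = 8.64e-06), the deepest fall of the 43 genes, and it fell by 0.93 ± 0.12 in staggerer cells (adjusted p = 0.000401), with a difference of 1.54 ± 0.17 (adjusted p = 0.000376). Pold3, a regulatory subunit, read 8.94 and 8.99, then 7.60 and 7.61 in wild type cells, and 8.18 and 8.08, then 6.44 and 6.76 in staggerer cells. It went below background on both treated staggerer arrays, where it was at least 2.47-fold lower (adjusted p = 8.89e-05), and it fell by 1.36 ± 0.14 in wild type cells (adjusted p = 0.000172).

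All 3 measured subunits of polymerase epsilon, the leading strand enzyme, rose in staggerer cells. The catalytic subunit Pole read 7.34 and 7.60, then 6.93 and 6.67 in wild type cells, and 7.01 and 7.02, then 7.91 and 7.92 in staggerer cells. The treated arrays were the lowest in wild type cells and the highest in staggerer cells. Pole fell by 0.67 ± 0.14 (adjusted p = 0.00516) and rose by 0.90 ± 0.14 (adjusted p = 0.00107), with a difference of 1.57 ± 0.20 (adjusted p = 0.000639). The histone-fold subunit Pole3 rose in both genotypes, by 0.52 ± 0.14 (adjusted p = 0.0138) and 0.98 ± 0.14 (adjusted p = 0.000653). Its partner Pole4 did not pass in wild type cells and rose by 1.30 ± 0.20 in staggerer cells (adjusted p = 0.000948), with a difference of 1.52 ± 0.28 (adjusted p = 0.00299). With no scaling between arrays the staggerer change of Pole was -0.06.

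Of the clamp and its loader, Pcna, the clamp that holds the polymerases on DNA, read 7.31 and 7.50, then 6.37 and 5.93 in wild type cells, and 6.75 and 6.78, then 7.60 and 7.72 in staggerer cells. Only 1 of the 2 treated wild type arrays was above background. Pcna fell by 1.26 ± 0.17 in wild type cells (adjusted p = 0.000599) and rose by 0.89 ± 0.17 in staggerer cells (adjusted p = 0.00251), with a difference of 2.15 ± 0.24 (adjusted p = 0.000397). With no scaling between arrays the staggerer change was -0.02. Rfc1, the large subunit of the clamp loader, read 10.38 and 10.40, then 8.60 and 8.58 in wild type cells, and 10.05 and 9.97, then 10.02 and 10.21 in staggerer cells. It fell in wild type cells by 1.81 ± 0.12 (adjusted p = 2.77e-05) and did not pass in staggerer cells, with a difference of 1.91 ± 0.16 (adjusted p = 0.000238). Among the small loader subunits, Rfc2 fell by 0.93 ± 0.11 in wild type cells (adjusted p = 0.000343) and rose by 0.30 ± 0.11 in staggerer cells (adjusted p = 0.0458). That rise was lost without any 1 array and was -0.25 with no scaling between arrays, while the difference was 1.23 ± 0.15 (adjusted p = 0.000636). Rfc4 fell in both genotypes, by 1.10 ± 0.29 (adjusted p = 0.0152) and 0.82 ± 0.29 (adjusted p = 0.0406), and Rfc5 rose by 0.40 ± 0.14 in staggerer cells (adjusted p = 0.0416), which became -0.61 with no scaling between arrays.

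Of the single-strand binding protein RPA, the small subunits Rpa2 and Rpa3 fell in wild type cells and rose in staggerer cells, while Rpa1 passed in neither. Rpa3 read 10.86 and 10.80, then 10.36 and 10.39 in wild type cells, and 10.89 and 10.60, then 11.78 and 11.58 in staggerer cells. Treated arrays lay below untreated ones in wild type cells and above them in staggerer cells. Rpa3 fell by 0.46 ± 0.14 (adjusted p = 0.026) and rose by 0.94 ± 0.14 (adjusted p = 0.000868), with a difference of 1.39 ± 0.20 (adjusted p = 0.000989). Rpa2 fell by 0.53 ± 0.13 (adjusted p = 0.00949) and rose by 0.68 ± 0.13 (adjusted p = 0.00259), with a difference of 1.21 ± 0.18 (adjusted p = 0.00122), but its other probe, above background on 2 arrays, gave -0.70 in staggerer cells and a difference of -0.41. At the end of the lagging strand, the DNA ligase Lig1 did not pass in wild type cells and rose by 0.72 ± 0.17 in staggerer cells (adjusted p = 0.00735), with a difference of 0.99 ± 0.24 (adjusted p = 0.00965). The staggerer change of Lig1 was -0.20 with no scaling between arrays. The flap nuclease Fen1 changed by 0.05 in wild type cells, with an interval from -0.28 to 0.38.

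In nucleotide supply, the large subunit of ribonucleotide reductase fell and the small one rose in wild type cells. Rrm1 read 11.36 and 11.26, then 9.32 and 9.37 in wild type cells, and 10.42 and 10.49, then 10.68 and 10.64 in staggerer cells. The treated wild type arrays lay below every other array. Rrm1 fell by 1.97 ± 0.11 (adjusted p = 1.56e-05) and did not pass in staggerer cells, at 0.20 ± 0.11 (adjusted p = 0.149), with a difference of 2.17 ± 0.15 (adjusted p = 0.000197). Rrm2, the S phase small subunit, read 9.56 and 9.78, then 10.77 and 10.54 in wild type cells, and 9.70 and 9.73, then 10.66 and 11.04 in staggerer cells. All 4 treated arrays were above all 4 untreated arrays. Rrm2 rose by 0.99 ± 0.17 (adjusted p = 0.00198) and by 1.13 ± 0.17 (adjusted p = 0.000849), and the interval of the difference ran from -0.41 to 0.71. Its other probe rose by 1.01 and 1.02.

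Thymidine kinase Tk1, which salvages thymidine, had the largest difference between the responses among the 43 genes. It read 10.33 and 10.23, then 7.93 and 8.24 in wild type cells, and 9.95 and 9.72, then 10.19 and 10.05 in staggerer cells. The treated wild type arrays were again the only low ones. Tk1 fell by 2.20 ± 0.15 (adjusted p = 3.38e-05) and did not pass in staggerer cells, at 0.28 ± 0.15 (adjusted p = 0.136), with a difference of 2.48 ± 0.21 (adjusted p = 0.000238). A dimmer Tk1 probe, above background on 5 arrays, gave -0.95 in wild type cells. Dut, the dUTPase that keeps uracil out of DNA, read 6.95 and 6.60, then 6.21 and 5.75 in wild type cells, and 6.82 and 6.68, then 7.99 and 7.64 in staggerer cells. Its treated staggerer arrays were the highest, and 1 of its 2 treated wild type arrays was above background. It fell by 0.80 ± 0.21 in wild type cells (adjusted p = 0.0139) and rose by 1.07 ± 0.21 in staggerer cells (adjusted p = 0.00305), with a difference of 1.87 ± 0.29 (adjusted p = 0.00155). Thymidylate synthase Tyms fell by 0.70 ± 0.13 and 0.64 ± 0.13 (adjusted p = 0.00267 and 0.00333). A dimmer Tyms probe, above background on 4 arrays, gave 1.27 in staggerer cells, while another, above background on 7 arrays, gave -0.95 there and -0.52 in wild type cells.

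Chromatin assembly factor subunits moved apart. Chaf1a, its large subunit, fell by 0.81 ± 0.18 in wild type cells (adjusted p = 0.0065) and by 1.40 ± 0.18 in staggerer cells (adjusted p = 0.000403), while Chaf1b rose by 0.89 ± 0.13 (adjusted p = 0.000928) and 0.53 ± 0.13 (adjusted p = 0.00892). With no scaling between arrays Chaf1b was -0.45 in staggerer cells. The transcription factor E2f1 read 11.10 and 11.08, then 11.88 and 12.16 in wild type cells, and 11.37 and 11.29, then 11.98 and 12.02 in staggerer cells. Its 4 treated values lay above its 4 untreated values. E2f1 rose by 0.93 ± 0.13 (adjusted p = 0.000748) and 0.67 ± 0.13 (adjusted p = 0.00293).

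Before any treatment, staggerer cells had lower signals for many replication genes. Of the 43, 16 were lower and 0 higher at an adjusted p of 0.05, where 6.15% of all tested genes were lower and 6.62% higher, and the median difference was -0.44, against -0.01 over all genes. The lower genes included Cdt1 at -0.99 ± 0.25 (adjusted p = 0.0454), Mcm10 at -0.92 ± 0.14 (adjusted p = 0.00496), Rrm1 at -0.85 ± 0.11 (adjusted p = 0.00279), Mcm6 at -0.85 ± 0.18 (adjusted p = 0.0233), Pola2 at -0.85 ± 0.17 (adjusted p = 0.0194), Pold3 at -0.84 ± 0.14 (adjusted p = 0.00806) and Fen1 at -0.77 ± 0.14 (adjusted p = 0.0135). The others were Chaf1b, Cdc7, Mcm5, Rpa2, Pcna, Mcm3, Pold1, Mcm4 and Rfc2, from -0.76 to -0.46. Rrm2 at 0.04 and E2f1 at 0.24 did not pass. This count rested on every untreated array. Leaving out the first or second untreated wild type array left 4 or 2 lower genes, and leaving out the first or second untreated staggerer array left 4 or 3. Only Mcm10 and Rrm1 kept their calls without any array. Fewer of all tested genes were lower as well when an untreated array was left out, but the replication genes lost a larger part of their calls. Their median difference then ran from -0.47 to -0.41, against -0.0092 to -0.0021 over all genes. Without background correction 22 of the replication genes were lower, and with no scaling between arrays 29 were. Of the 9340 tested genes, 873 and 2269 were lower under those settings. The second Rpa2 probe gave 0.67. Markers of other cell types differed along with this contrast. The 3 mesothelial markers had summed log2 signals of 10.78 to 10.86 in untreated wild type and 6.89 to 7.08 in untreated staggerer arrays, and the macrophage markers were at 12.40 to 12.45 and 10.47 to 10.51. All 3 epithelial markers tested were lower in untreated staggerer cells (median -1.39), as was the 1 muscle marker (-2.94), while 1 of 2 neural markers was higher. Fibroblast markers were at 16.50 and at 16.45 to 16.48. Taken gene by gene, 3 of the 11 fibroblast markers tested were lower and 1 was higher, with differences from -2.60 to 0.91. The part of these cell types in the result was not tested.

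**Figure D5:**
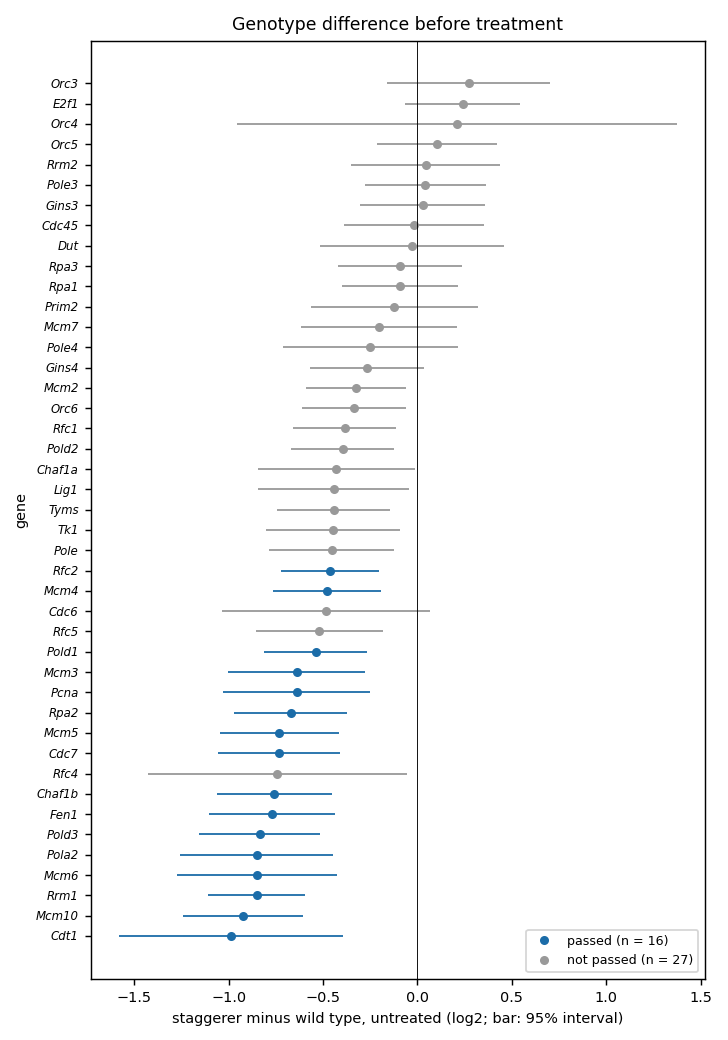
Log2 difference of untreated staggerer from untreated wild type cells for each of the 43 genes with its 95% interval, coloured by whether it passed the test. The 16 genes that passed all lie below 0, and the 27 that did not pass lie on both sides of it.

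After doxorubicin the genotypes differed in both directions. Of the 43, 19 were higher and 15 lower in staggerer cells, where 32.5% of all tested genes were higher and 39.9% lower, with a median of 0.19 against -0.14 over all genes. This comparison shares its arrays with those above, so its values follow from them. Mcm2 at 2.04 ± 0.11 (adjusted p = 1.33e-05), Tk1 at 2.04 ± 0.15 (adjusted p = 2.63e-05), Dut at 1.84 ± 0.21 (adjusted p = 0.00016), Pold1 at 1.67 ± 0.12 (adjusted p = 2.12e-05), Rfc1 at 1.53 ± 0.12 (adjusted p = 2.87e-05) and Pcna at 1.51 ± 0.17 (adjusted p = 0.000142) were the highest. Cdc45 at -1.53 ± 0.16 (adjusted p = 0.000103), Chaf1b at -1.12 ± 0.13 (adjusted p = 0.000176) and Chaf1a at -1.03 ± 0.18 (adjusted p = 0.00135) were among the lowest. Pola2, Cdc6 and Pold3, below background on the treated staggerer arrays, were at least 1.81-fold, 1.70-fold and 1.72-fold lower (adjusted p = 3.36e-05, 0.00212 and 0.000399). Median centring gave 23 higher and 11 lower, with a median of 0.55. Over all 9340 genes it gave 4202 higher and 2899 lower, with a median of 0.28. No scaling between arrays gave 8 higher and 22 lower, with a median of -0.52. Over all genes it gave 1365 higher and 5429 lower, with a median of -0.80. Cell type markers differed here too. Fibroblast markers were higher for 7 of 11 and lower for 2, and epithelial markers higher for 1 of 3 and lower for 2. Macrophage markers were lower for 4 of 5 and mesothelial markers for 2 of 3. Of 2 neural markers 1 was higher, and the 1 muscle and 1 blood marker tested were lower. The part of these markers in the result was not tested. Without the first treated wild type array, Lig1, Mcm4, Orc5, Pole3 and Tyms lost their calls (adjusted p from 0.0614 to 0.152), and Cdt1 lost its call without the second (adjusted p = 0.0779).

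Other genes of the same pathways, from 3 lists, are given for comparison. Of all tested genes, 30.3% fell and 26.3% rose in wild type cells, and 33.1% fell and 31.6% rose in staggerer cells. Of 23 further licensing and fork genes, 13 (56.5%) fell and 3 (13%) rose in wild type cells, and 10 (43.5%) fell and 9 (39.1%) rose in staggerer cells. The checkpoint mediator Clspn, which travels with the fork, fell by 1.92 ± 0.11 in wild type cells (adjusted p = 1.61e-05) and fell by 1.98 ± 0.11 in staggerer cells (adjusted p = 1.69e-05), and the fork-protection gene Timeless was at least 3.20-fold lower in wild type cells (adjusted p = 6.9e-05) and at least 1.20-fold lower in staggerer cells (adjusted p = 7.74e-05). Uhrf1, which recruits maintenance DNA methylation to new strands, fell by 1.92 ± 0.16 in wild type cells (adjusted p = 8.5e-05), and its difference between responses was 1.76 ± 0.23 (adjusted p = 0.000765). Of these 23 genes, the staggerer response was higher for 6 (26.1%) and lower for 4 (17.4%). It was higher for 26.5% and lower for 32.5% of all tested genes. Of 26 further nucleotide synthesis genes, 12 (46.2%) fell and 4 (15.4%) rose in wild type cells, and 5 (19.2%) fell and 14 (53.8%) rose in staggerer cells. The one-carbon enzyme Shmt2 fell by 1.49 ± 0.12 in wild type cells (adjusted p = 5.43e-05) and rose by 0.88 ± 0.12 in staggerer cells (adjusted p = 0.000489), a difference of 2.37 ± 0.16 (adjusted p = 0.000197). The damage-inducible reductase subunit Rrm2b rose by 1.35 ± 0.14 in wild type cells (adjusted p = 0.000175) and by 1.35 ± 0.14 in staggerer cells (adjusted p = 0.000152). Among these 26 genes the staggerer response was higher for 11 (42.3%) and lower for 4 (15.4%). Of 14 E2F and pocket protein partners, 5 (35.7%) fell and 3 (21.4%) rose in wild type cells, both near the shares of all genes, and 7 (50%) fell and 1 (7.14%) rose in staggerer cells. Mybl2, a B-Myb transcription factor of the same cell cycle programme, rose by 1.46 ± 0.14 in wild type cells (adjusted p = 0.000152), and its difference between responses was -1.13 ± 0.20 (adjusted p = 0.00258). Among these 14 genes the staggerer response was higher for 3 (21.4%) and lower for 3 (21.4%).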

How the data were processed

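The authors deposited a linear intensity table of 25697 probes with 1124 control rows, per the file headers, and no detection p. They also deposited a table of log2 values, which equals quantile normalization of the log2 intensity with no background correction (largest difference 5.09e-09), and the series matrix is identical to it. No source used here names the scanner software.

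The intensities were reprocessed with limma 3.58.1 in R 4.3.3. As no type is given for the control rows, 1114 of them served as negative controls, and 10 were dropped for lying more than 5 median absolute deviations over the median. The normal-exponential background model was fitted to these controls (offset 16), then quantile normalization and log2 followed. A probe counted as above background on an array where under 0.01 of the controls (its detection p) reached its signal. Probes above background on at least 2 of 8 arrays were kept, which left 12362, and the brightest probe stood for each gene, which gave 9340 genes. Gene names come from the platform annotation, with 23962 probes matched by Entrez identifier to RefSeq (GRCm38.p6).

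Group means were fitted jointly over the 8 arrays with lmFit and eBayes (4 residual and 3.23 prior degrees of freedom), with 5 comparisons and two-sided p-values adjusted by Benjamini-Hochberg over all genes at 0.05. Every adjusted p in the text is from this fit. The fit was tested on simulated data in which few probes changed, in the treated wild type group only, and arrays were equally bright. Such data cannot test the scaling of dimmer arrays like the treated staggerer ones. The number of arrays limits the precision. The genes, lists and tests were chosen with earlier results of these data known. Full statistics are given for the largest rise and fall of each role group, for genes that passed in opposite directions and for genes that passed the interaction. From the other lists, the genes named were among the 4 with the smallest p in a comparison.

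Alternatives changed the scaling (no background correction, median centring, no scaling between arrays, the authors' table), the probes (unfiltered, detected on all 8 arrays, averaged per gene) and the fit (robust trended variance, replicate number as a block, a 1.5-fold minimum, only the arrays compared, each array left out in turn). Same-numbered arrays did not deviate together, as the correlations of their deviations ran from -0.03 to 0.02. Such correlations cannot exclude that same-numbered arrays shared a culture, embryo or day. The main fit used no pairing. A sequence withheld for evaluation is not reported here.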

Additional observations from a re-analysis of the deposited data

Results flagged for a closer look

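The doxorubicin response differed between staggerer and wild type cells for 23 of the 43 genes, by the test of the difference itself. The values are staggerer minus wild type responses on the log2 scale. They were 2.48 for Tk1, 2.36 for Mcm2, 2.20 for Pold1, 2.17 for Rrm1, 2.15 for Pcna, 1.91 for Rfc1 and 1.87 for Dut. They were 1.69 for Mcm6, 1.57 for Pole, 1.55 for Mcm3, 1.54 for Pold2, 1.52 for Pole4, 1.49 for Cdc7, 1.39 for Rpa3, 1.23 for Rfc2 and 1.21 for Rpa2. Smaller positive differences were 0.99 for Lig1, 0.91 for Orc3 and 0.67 for Mcm10. Negative ones were -0.52 for Orc5, -0.79 for Gins3, -1.32 for Pola2 and -1.52 for Cdc45, where Gins3 and Pola2 are fitted values with both treated staggerer arrays below background.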

How the results depend on the processing

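With 2 arrays a group and 4 residual degrees of freedom, small changes were not resolved, and dim genes are known only as bounds. With no scaling between arrays, 3 genes rose in wild type cells, where 1711 of the 9340 tested genes did. Under that setting 1 rose and 26 fell in staggerer cells, and 29 were lower in untreated staggerer cells. It also left 8 higher after doxorubicin and 8 below in the interaction. A fold of at least 1.5 left 3 wild type rises, and leaving out 1 array left 3 to 5, with 3 without the second treated wild type array. For untreated cells, 10 genes were lower with no detection filter and 2 to 20 with 1 array left out. The share of all called genes that rose in staggerer cells was 48.9% as reported, 66.7% with median centring and 16.7% with no scaling between arrays. It was 46.5% against 30.5% with no scaling in wild type cells, 51.8% against 11.7% between untreated genotypes, 44.9% against 59.2% and 20.1% after doxorubicin, and 44.9% against 60.6% and 28.6% in the interaction. The medians of all genes ran from -0.35 to -0.04, -0.56 to 0.46, -0.34 to 0.02, -0.80 to 0.28 and -0.43 to 0.29 over the scalings, in the order of the doxorubicin effect in each genotype, the untreated and treated genotype effects and the interaction.

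Changes of sign are given where the value passed the test as reported or under the alternative. With no scaling between arrays the staggerer change turned for Orc3 (-0.71), Mcm2 (-0.39), Mcm3 (-0.50), Mcm6 (-0.071), Mcm7 (-0.16), Pole (-0.064), Pcna (-0.025), Rfc1 (-0.77), Rfc2 (-0.25), Rfc5 (-0.61), Rpa2 (-0.33), Lig1 (-0.20), Fen1 (-0.68), Rrm1 (-0.51), Tk1 (-0.58) and Chaf1b (-0.45). The genotype difference after doxorubicin turned for Mcm3 (-0.17), Mcm7 (-0.73), Cdc7 (-0.32), Pole3 (-0.22), Rpa2 (-0.54), Lig1 (-0.42) and Rrm2 (-0.54), and the interaction for Mcm10 (-0.057). Median centring turned Gins4 in staggerer cells (0.0035) and Mcm4 (0.55) and E2f1 (0.73) after doxorubicin, and the mean of its probes turned Rpa2 in staggerer cells (-0.011). With 1 array left out, Orc4 ran from -0.66 to 1.13 in staggerer cells, from -0.80 to 0.98 between treated genotypes and from -1.01 to 0.78 in the interaction. The cause was not tested.

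With the replicate block, 4 of the 43 genes rose and 27 fell in wild type cells, where 2397 and 2740 of 9340 tested genes did. In staggerer cells 15 rose and 15 fell, where 2900 and 3073 of all genes did. Between untreated genotypes 0 were higher and 12 lower, where 530 and 478 of all genes were. After doxorubicin 19 were higher and 15 lower, where 3007 and 3691 of all genes were. In the interaction 19 lay above and 3 below, where 2412 and 2988 of all genes did. The slide as a block was not run, as the file headers name no slide. Of the genes called, 22 of 32, 11 of 33, 1 of 16, 17 of 34 and 16 of 23 kept direction and call under every alternative, in the order of comparisons above.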
